A study of Homo sapiens with 16 samples.

Results

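Imprinted genes are transcribed mainly or only from the allele inherited from one parent. The 10 followed here were H19, MEG3, PEG3, PEG10, PLAGL1, DLK1, NNAT, MEST, CDKN1C and NDN, taken by their gene names from a table of 23284 genes, and all 10 were found in it. The study induced WA01 human embryonic stem cells toward neural crest and asked what removing the FOXB1 protein, a forkhead transcription factor, does to gene expression over that time. The edited lines were KO and Het, each made with CRISPR/Cas9 and a single guide RNA aimed at the start of FOXB1 translation, and the unedited lines were isogenic wild type 1 and 2. Poly-adenylated RNA was sequenced at day 5 (labelled neural crest) and day 3 (labelled pre-neural crest), with 2 libraries for each line and day and 16 libraries in all. Every group, wild type included, received 3 µM CHIR99021, an activator of WNT signalling, and the ROCK inhibitor Y-27632 at the start of differentiation. The authors' table holds 6 groups, namely KO, Het and wild type at day 5 and at day 3. It gives 1 wild-type group per day and does not state which wild-type libraries entered it, and its group HOMO was read as KO. Each genotype of the edited cells is 1 line, so line and genotype cannot be told apart. Total RNA of a gene does not show which parental allele it came from.

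Imprints are DNA methylation marks set in the egg or sperm and kept in the embryo by factors such as DNMT1, ZFP57 and TRIM28. They sit at control regions that often govern several neighbouring genes of opposite parental origin. Many imprinted genes act on fetal growth and on stem and progenitor cells, and in human pluripotent lines the imprints of single loci can be gained or lost in culture. In human, PEG3, PEG10, PLAGL1, DLK1, NNAT, MEST and NDN are expressed from the paternal allele, and H19, MEG3 and CDKN1C from the maternal one.

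Promoter sequences were available for 5 of the 10 genes, as 300-base windows from 250 bases before to 50 bases after an annotated transcription start, from RefSeq on GRCh38.p14. They are shown for their content of CpG, the substrate of imprint methylation, which differed between genes and also between the windows of 1 gene. Capitals mark TGCCGC on either strand (GCGGCA on the other), the core hexamer that ZFP57 binds when methylated, and 16.74% of all 35116 windows in the table hold it. The PLAGL1 window holds 39 CpG dinucleotides, the NDN window 35, the MEST window 25 and the H19 window 6, against a median of 14 over all windows. The hexamer occurs 2 times in the PLAGL1 window, 3 times in the MEST window with 2 of the matches overlapping, 1 time in the NDN window and 0 times in the H19 window. PLAGL1 and MEST each have 5 such windows and the ones shown hold their highest counts of CpG and of the hexamer. The other PLAGL1 windows hold 31, 3, 3 and 2 CpG and 0 hexamers, and those of MEST between 13 and 22 CpG and up to 2 hexamers. The 3 overlapping MEG3 windows, which are not printed, hold 17 to 19 CpG and 1 hexamer each. A match describes these letters and is not a measured binding site.
PLAGL1, chr6:144008210-144008509, minus strand: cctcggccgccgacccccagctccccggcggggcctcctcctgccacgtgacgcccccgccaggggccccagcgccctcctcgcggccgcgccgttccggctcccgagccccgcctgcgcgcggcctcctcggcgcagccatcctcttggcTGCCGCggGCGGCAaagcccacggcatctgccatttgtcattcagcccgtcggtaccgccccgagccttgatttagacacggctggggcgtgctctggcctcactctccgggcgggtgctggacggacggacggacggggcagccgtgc
MEST, chr7:130491835-130492134, plus strand: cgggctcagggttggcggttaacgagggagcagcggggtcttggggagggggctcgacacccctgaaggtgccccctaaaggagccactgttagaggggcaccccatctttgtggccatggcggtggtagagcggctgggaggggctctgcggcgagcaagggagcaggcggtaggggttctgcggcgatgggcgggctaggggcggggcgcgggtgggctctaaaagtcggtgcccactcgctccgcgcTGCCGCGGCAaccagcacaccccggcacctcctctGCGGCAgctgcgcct
NDN, chr15:23687256-23687555, minus strand: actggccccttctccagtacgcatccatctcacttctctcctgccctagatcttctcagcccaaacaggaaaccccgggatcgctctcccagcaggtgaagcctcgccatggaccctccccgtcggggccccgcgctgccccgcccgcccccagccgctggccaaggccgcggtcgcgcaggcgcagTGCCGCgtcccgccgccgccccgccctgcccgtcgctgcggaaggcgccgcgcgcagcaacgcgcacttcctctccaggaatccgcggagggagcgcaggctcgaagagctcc
H19, chr11:2001217-2001516, minus strand: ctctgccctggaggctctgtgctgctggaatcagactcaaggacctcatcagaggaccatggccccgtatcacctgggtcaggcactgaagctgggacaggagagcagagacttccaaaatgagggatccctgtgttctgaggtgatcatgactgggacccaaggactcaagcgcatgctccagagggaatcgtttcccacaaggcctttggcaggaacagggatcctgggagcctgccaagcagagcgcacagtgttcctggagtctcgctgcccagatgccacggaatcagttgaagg

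Of the 10 genes, 3 are hosts of microRNAs. The mature 5p arms are printed with the seed, bases 2 to 8, in capitals, because they share their host's transcript but not its poly-A measurement. The hairpins MIR675, MIR335 and MIR770 are listed at 0 FPKM in every group and were in no test. The seeds differ from each other.
miR-675-5p, from H19: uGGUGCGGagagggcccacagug
miR-335-5p, from MEST: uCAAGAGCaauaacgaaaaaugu
miR-770-5p, from MEG3: uCCAGUACcacgugucagggcca

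Levels are FPKM, a measure of RNA abundance scaled to transcript length and library size, with 1 value per gene and group with no value per library, so depth is unknown. Between 13099 and 13562 genes reached 1 FPKM in a group. A change is called where the q-value of Cuffdiff in the authors' deposited table was below 0.05, and its standard error (SE) on the log2 scale is the one implied by the deposited test score. FOXB1 RNA stood at 1.86 FPKM in KO, 4.47 in Het and 5.51 in wild type at day 5, and at 15.5, 7.73 and 18.3 FPKM in these lines at day 3, which does not check an edit at the start codon. Of all tested genes, 7.58% were called higher and 5.68% lower in KO against wild type at day 5, and 4.34% and 5.17% at day 3. In Het against wild type these shares were 1.14% and 1.02% at day 5, and 1.68% and 4.63% at day 3. Of 10 neural crest markers, 9 were called higher in KO than in wild type at day 5 and 5 at day 3, and in Het 7 at day 5 and 5 at day 3. Their summed level at day 5 was 267.5 FPKM in KO, 103.8 in Het and 47.39 in wild type, and none was at 0. Of 6 neural progenitor markers, 4 were lower in KO at each day and 3 were lower in Het at day 3. Of 8 pluripotency markers, 2 were higher and 1 lower in KO than in wild type at day 5, 3 were higher in KO at day 3, and POU5F1 was lower in Het at day 3, while UTF1 of that list was at 0 in every group. Single markers on the lists of other cell types also differed between the lines. The 8 mesoderm markers summed to 12.93 FPKM in KO, 1.734 in Het and 1.251 in wild type at day 3, with T and PRRX1 called higher in KO against wild type, and to 4.117, 1.031 and 0.867 FPKM in these lines at day 5, with 0 called against wild type. MIXL1 held 9.355 FPKM of the KO sum at day 3 and was not called against wild type. The 6 endoderm markers summed to 2.118 FPKM or less in every group, with SOX17 at day 3 and FOXA2 at day 5 called higher in KO, both listed at 0 in wild type. The 6 trophoblast markers summed to 12.39 FPKM in KO, 4.786 in Het and 1.752 in wild type at day 5, and to 6.599, 5.076 and 2.946 FPKM at day 3, and TFAP2C of that list was called higher in both edited lines at both days. TFAP2C held most of these sums, at 11.91, 4.283 and 1.235 FPKM in KO, Het and wild type at day 5. At day 3 it was at 4.956, 4.582 and 2.184 FPKM. It was the 1 marker of that list tested against wild type at day 5. The 7 neuronal markers summed to 42.45 FPKM in KO, 21.5 in Het and 12.69 in wild type at day 3, with STMN2 called higher in KO and POU4F1 in Het. At day 5 these sums were 10.61, 8.943 and 7.589 FPKM, with DCX called higher in KO. The part of such cells in the differences between lines given below was not tested.

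Of the 10 genes, 9 were at 1 FPKM or more in all 6 groups, with levels from 1.55 to 331 FPKM and an SE of each group level from 0.27 to 0.48 on the log2 scale. PEG10, NNAT and MEST were above 50 FPKM in every group. MEG3 was the exception, with all 6 levels below 1 FPKM and an SE from 0.57 to 1.65. Ranking the 6 groups within each gene gave 50 steps between neighbours, of which 47 were tested and 3 called. The called steps were DLK1 in Het at day 3 below wild type at day 3, DLK1 in Het at day 5 below Het at day 3, and PLAGL1 in Het at day 5 below Het at day 3. The other tested steps were not called.

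**Figure D1:**
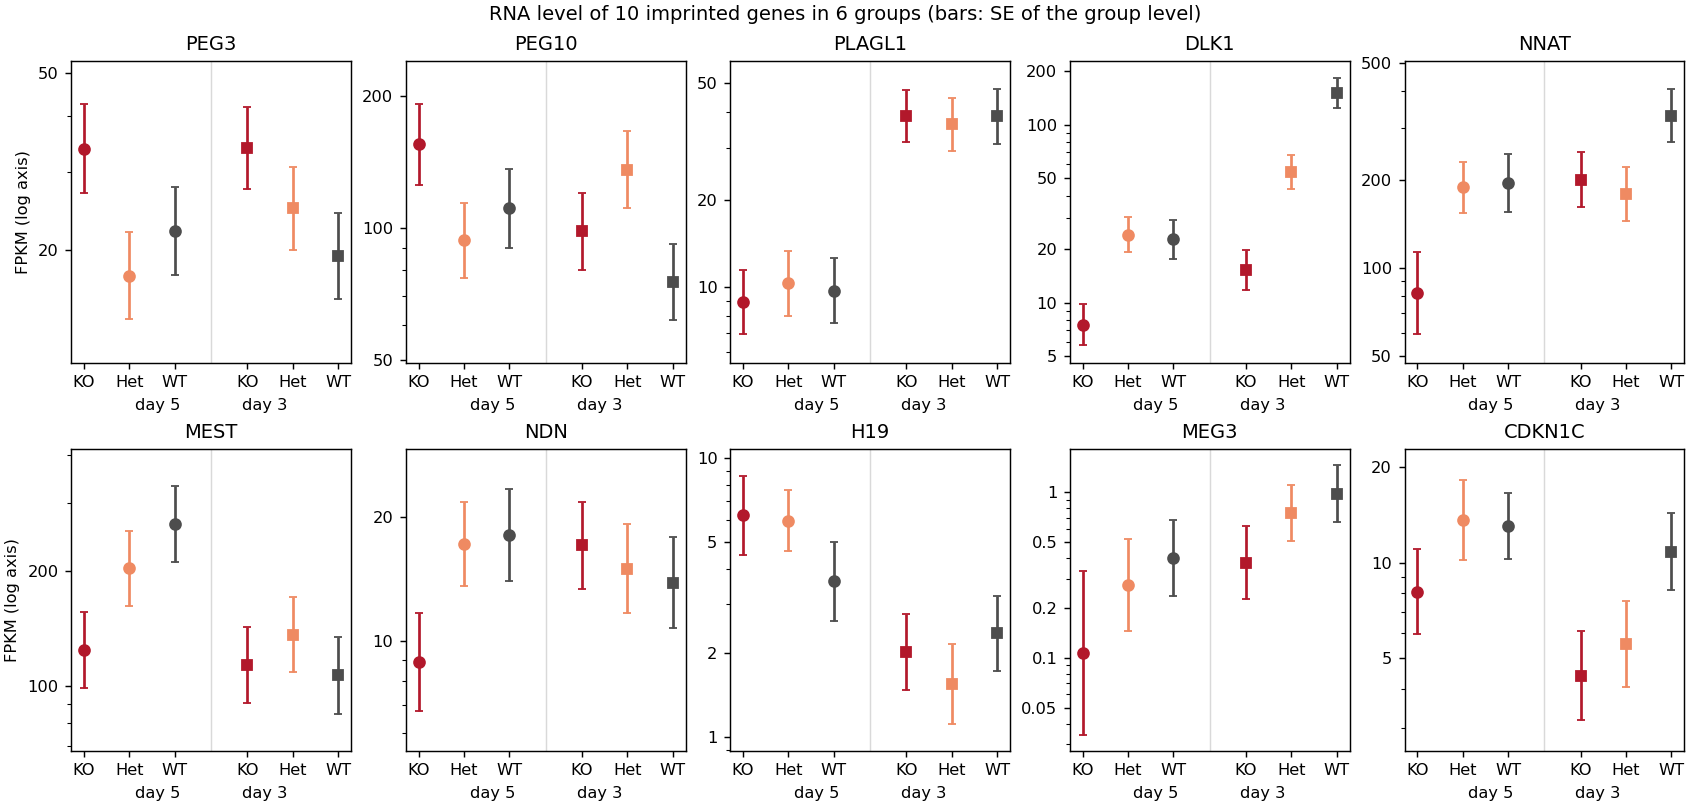
RNA level in FPKM on a log axis for each of the 10 genes, 1 panel per gene, in KO, Het and wild type (WT) at day 5 (circles) and day 3 (squares); bars are 1 SE of the group level implied by the deposited test scores. DLK1 lay at 7.53 FPKM in KO at day 5 and at 151 FPKM in wild type at day 3, while the 3 lines lay together for PLAGL1 at each day.

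DLK1 (chromosome 14, 101193202 to 101201467 in hg19) encodes a transmembrane protein with EGF-like repeats, related to Notch ligands, that is known for holding fat cell precursors undifferentiated. Its level was 7.53 FPKM in KO, 24.1 in Het and 22.7 in wild type at day 5. At day 3 it was 15.3 FPKM in KO, 54.4 in Het and 151 in wild type. KO was the lowest line at both days, Het lay between KO and wild type at day 3, and Het stood beside wild type at day 5. DLK1 was lower in KO than in wild type by a log2 change of -3.30 ± 0.47 (SE) at day 3, a 9.88-fold difference with q = 0.00126 in the authors' deposited table. At day 5 the log2 change was -1.59 ± 0.53 with q = 0.0032 in the authors' deposited table. Het differed from wild type by -1.47 ± 0.41 at day 3, called at q = 0.00126 in the authors' deposited table, and by 0.09 ± 0.49 at day 5, which was not called. KO was also lower than Het, by -1.68 ± 0.51 at day 5 and -1.83 ± 0.49 at day 3, both with q = 0.00126 in the authors' deposited table.

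Of the 6 markers of neural progenitors, 4 were called lower in KO at each day, as DLK1 was. In Het, 3 were called lower at day 3 and 0 at day 5, and DLK1 was also called lower at day 3 alone. Over time the markers did not all move as DLK1 did. The summed level of the 6 was 61.33 FPKM in KO, 127.7 in Het and 177.7 in wild type at day 5, and 82.27, 111.8 and 217.6 FPKM in the same lines at day 3. SOX2 held most of each sum. It was at 57.97, 102 and 139.6 FPKM in KO, Het and wild type at day 5, and at 75.48, 94.97 and 154.6 FPKM at day 3. None of the 6 was at 0 in any group. In KO against wild type, SOX1, SOX2, SOX3 and HES5 were called lower at day 5 and SOX1, SOX2, SOX3 and DBX1 at day 3. In Het against wild type 0 of the 6 were called at day 5 by Cuffdiff, with 1 at an unadjusted p under 0.05, and SOX1, SOX3 and DBX1 were lower at day 3, where PAX6 had a log2 change of 0.35 and was not called. Over time in Het, where DLK1 fell, SOX1 rose to 17.7 FPKM at day 5 against 5.63 at day 3, HES5 rose to 3.30 against 0.206 FPKM, and DBX1 fell. In wild type over time HES5 rose by a log2 change of 2.51, while SOX3 and DBX1 fell. The part of these cells in the DLK1 difference was not tested. In bulk RNA, fewer cells of a type and less RNA per cell cannot be told apart.

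At day 5, DLK1, NNAT, MEST and NDN were called in KO against wild type, 4 lower and 0 higher of 9 tested, where 13.3% of the 14936 tested genes were called, 7.58% higher and 5.68% lower. The median log2 change of the 10 genes was -0.85, against 0.04 for all tested genes, and 7 of the 10 were below 0. The median size of the change, regardless of sign, was 0.90 against 0.39. The values for the 10 genes include MEG3, at -1.90, which was not tested and lay below 1 FPKM. The table has no value per library, so whether single libraries of the groups overlap is unknown.

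NNAT (neuronatin, chromosome 20) encodes a small membrane proteolipid of developing brain. It was at 81.9 FPKM in KO, 188 in Het and 195 in wild type at day 5. KO was lower than wild type by a log2 change of -1.25 ± 0.57 (SE), with q = 0.025 in the authors' deposited table. KO was 2.30-fold lower than Het, which did not pass, at q = 0.0504 in the authors' deposited table. NNAT lies inside an intron of BLCAP and the table gives both the same position, and BLCAP itself was at 40.8 FPKM in KO and 22.3 in wild type, not called.

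MEST (mesoderm specific transcript, chromosome 7) encodes a predicted hydrolase that is also called PEG1. Its day 5 level was 124 FPKM in KO, 203 in Het and 265 in wild type. KO stood lowest and Het between the other lines. The log2 change of KO against wild type was -1.09 ± 0.47 (SE) with q = 0.0068 in the authors' deposited table. Het differed from wild type by -0.38 ± 0.46, not called. KO against Het came to -0.71 ± 0.46 with q = 0.17 in the authors' deposited table and did not pass. COPG2, which overlaps MEST on the other strand and shares its listed position, was at 43.1 FPKM in KO and 59.8 in wild type, not called.

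NDN (necdin, chromosome 15, 23930554 to 23932450 in hg19) encodes a MAGE family protein known as a growth suppressor of neurons, and lies in the region lost in Prader-Willi syndrome. At day 5 it was at 8.90 FPKM in KO, 17.2 in Het and 18.1 in wild type. The log2 change of KO against wild type was -1.02 ± 0.54 (SE) with q = 0.035 in the authors' deposited table. KO against Het came to -0.95 ± 0.52 with q = 0.080 in the authors' deposited table and did not pass. Cuffdiff's unadjusted p was 0.00345 against wild type and 0.011 against Het, for changes of like size and SE. Passing in 1 comparison and not in the other does not show that Het and wild type differ.

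The other 6 genes were not called in KO against wild type at day 5. H19, PEG3 and PEG10 had log2 changes of 0.79 ± 0.66, 0.61 ± 0.47 and 0.48 ± 0.43 (SE). CDKN1C was at -0.69 ± 0.56 and PLAGL1 at -0.13 ± 0.52. MEG3 was at 0.107 FPKM in KO and 0.401 in wild type and was not tested. At an unadjusted p under 0.05, 6 of the 9 tested genes passed, the further ones being H19 and PEG3.

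At day 3, KO differed from wild type in 3 of the 10 genes, with PEG3 higher and DLK1 and CDKN1C lower, where 9.51% of 14678 tested genes were called, 4.34% higher and 5.17% lower. PEG3 (chromosome 19) encodes a zinc finger protein. It was at 33.9 FPKM in KO, 24.8 in Het and 19.4 in wild type at day 3, and at 33.8, 17.6 and 22.1 FPKM in the same lines at day 5. KO was the highest line at both days. The log2 change of KO against wild type was 0.81 ± 0.44 (SE) at day 3 with q = 0.042 in the authors' deposited table. That call was lost when p-values were adjusted over the genes of this comparison alone. PEG3-AS1, a transcript antisense to PEG3 with the same listed position, was at 45.2, 23.5 and 32.2 FPKM in KO, Het and wild type at day 5, and the counting is not stated to use strand.

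CDKN1C (chromosome 11, 2904448 to 2906995 in hg19) encodes a cyclin-dependent kinase inhibitor that brings progenitors out of the cell cycle. At day 3 it was at 4.40 FPKM in KO, 5.53 in Het and 10.8 in wild type. Both edited lines were below wild type. The log2 change was -1.30 ± 0.61 (SE) in KO with q = 0.014 in the authors' deposited table. In Het it was -0.97 ± 0.60 with q = 0.085 in the authors' deposited table and did not pass. CDKN1C is a GC-rich transcript at 62.8% G and C, and expressed genes of like GC content had a median log2 change of -0.54 in KO and -0.52 in Het at day 3. Less that median, the CDKN1C change in KO came to -0.77. DLK1 and NNAT, at 59.0% and 59.4%, sit where that median was -0.31 in KO and -0.34 in Het. In KO against Het at day 3, which does not use the wild-type day 3 group, it was 0.0064. The part of GC content in these differences was not tested.

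At day 3 the levels of the remaining genes in KO did not pass against wild type. NNAT came closest, at 199 FPKM in KO and 331 in wild type, a log2 change of -0.73 ± 0.43 (SE) with q = 0.056 in the authors' deposited table. MEG3 was at 0.376 FPKM in KO and 0.983 in wild type, with q = 0.071 in the authors' deposited table. MEST and NDN, lower in KO at day 5, had log2 changes of 0.09 ± 0.47 and 0.30 ± 0.51 at day 3. PLAGL1 was at 38.6 FPKM in KO and 38.5 in wild type.

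Het and KO are set against the same wild-type groups, so their changes are not independent of each other. At day 3, 3 of the 10 genes were called in Het, where 6.31% of 14618 tested genes were called, 1.68% higher and 4.63% lower. DLK1 and NNAT were lower and PEG10 higher. PEG10 (chromosome 7, 94285637 to 94299006 in hg19) derives from the gag and pol genes of a retrotransposon and is needed for the placenta in mouse. It was at 98.1 FPKM in KO, 136 in Het and 75.2 in wild type at day 3, and at 155, 93.6 and 111 FPKM in these lines at day 5. Het was the highest line at day 3 and the lowest at day 5. The day 3 log2 change of Het against wild type was 0.85 ± 0.41 (SE) with q = 0.016 in the authors' deposited table. NNAT was at 179 FPKM in Het and 331 in wild type at day 3, a log2 change of -0.89 ± 0.42 with q = 0.014 in the authors' deposited table, which came to -0.55 less the median of genes of like GC content.

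At day 5 Cuffdiff called 0 of 9 tested genes in Het against wild type, and 0 had an unadjusted p under 0.05, where 2.16% of 14561 tested genes were called, 1.14% higher and 1.02% lower. The largest change was H19 at 5.96 FPKM in Het and 3.61 in wild type, a log2 change of 0.72 ± 0.59 (SE). The 10 genes had a median size of change of 0.16, against 0.24 for all tested genes. Of the 10, 8 had changes between -0.38 and 0.09, and MEG3, which was not tested, had -0.54.

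KO was compared with Het directly as the 2 lines edited with the same guide. At day 5, 2 of 9 tested genes were called, where 8.06% of 15000 tested genes were called, 5.55% higher and 2.51% lower. They were DLK1, lower in KO as given above, and PEG3 at 33.8 FPKM in KO and 17.6 in Het. The PEG3 log2 change was 0.95 ± 0.46 (SE) with q = 0.048 in the authors' deposited table, a call lost when p-values were adjusted within the comparison. At day 3 DLK1 alone of the 10 was called, where 2.84% of 14624 tested genes were called, 2.30% higher and 0.540% lower.

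**Figure D2:**
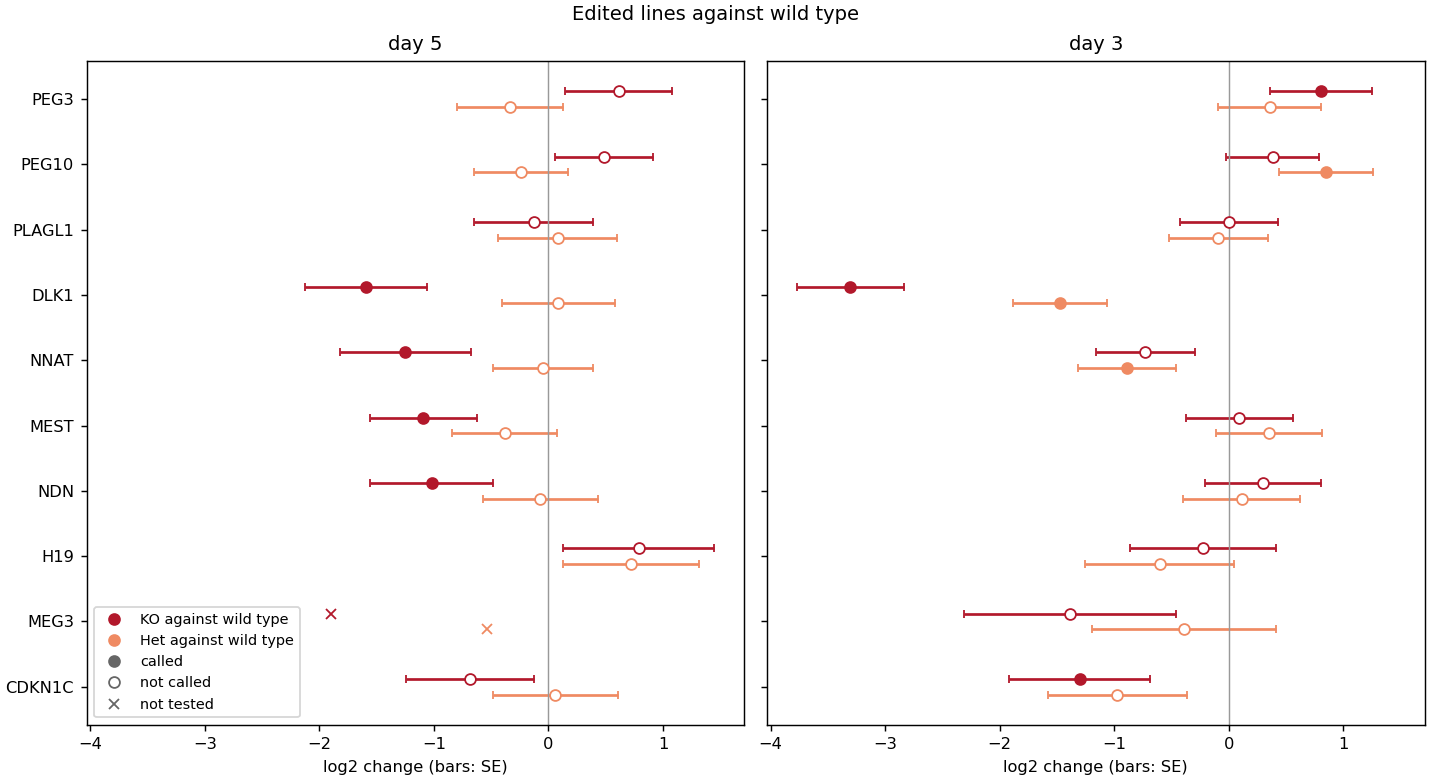
Log2 change of each gene in KO (red) and Het (orange) against wild type, at day 5 (left) and day 3 (right); bars are 1 SE, filled points were called at q below 0.05, open points were not, and crosses were not tested. DLK1 lies at -3.30 in KO and -1.47 in Het at day 3, and the filled points at day 5 all belong to KO and lie below 0.

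Between day 5 and day 3, PLAGL1, DLK1, NNAT, H19, MEST and CDKN1C were called in at least 1 line, and PEG3, PEG10, NDN and MEG3 in none of the 3 by Cuffdiff, MEG3 not being tested in KO. PLAGL1 (chromosome 6) encodes a zinc finger transcription factor that restrains proliferation, and its overexpression from the chromosome 6 locus causes transient neonatal diabetes. It was at 8.92 FPKM in KO, 10.3 in Het and 9.75 in wild type at day 5. At day 3 it was at 38.6, 36.2 and 38.5 FPKM in KO, Het and wild type. The days were well apart and the lines close together. The log2 change of day 5 against day 3 was -2.12 ± 0.47 in KO, -1.81 ± 0.48 in Het and -1.98 ± 0.48 in wild type (SE), each with q = 0.00126 in the authors' deposited table.

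In KO, 3 of 9 tested genes were called over time, where 11.8% of 14995 tested genes were called, 7.29% higher and 4.53% lower. H19 rose, and PLAGL1 and NNAT fell. In Het, 4 of 10 were called, where 7.57% of 14795 were called, 4.74% higher and 2.83% lower, with H19 and CDKN1C higher and PLAGL1 and DLK1 lower at day 5. In wild type, 4 of 10 were called, where 21.6% of 14680 were called, 11.2% higher and 10.4% lower, with MEST higher and PLAGL1, DLK1 and NNAT lower at day 5. The time courses use each line's own day 3 group and share no group with each other. For a change of like size against its SE, Cuffdiff's p-values were smaller in wild type. NNAT in wild type, at -0.77 ± 0.44, had an unadjusted Cuffdiff p of 0.00155. DLK1 in KO, at -1.02 ± 0.54, had 0.016 and was not called. The calls and shares over time are therefore not on a like scale between the lines. In wild type the change over time also varied with GC content, with a median log2 change of -0.58 for expressed genes of like GC content to H19 and CDKN1C, -0.35 for those like DLK1 and NNAT and 0.20 for those like MEST and PEG3. The medians for genes like H19 were 0.080 in KO and 0.20 in Het, and those for genes like DLK1 were 0.031 in KO and 0.058 in Het. The part of GC content in the time courses was not tested.

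H19 (chromosome 11, 2016406 to 2019065 in hg19) is a long non-coding RNA that shares its control region with IGF2 and gives rise to miR-675. It was at 6.23 FPKM in KO, 5.96 in Het and 3.61 in wild type at day 5, and at 2.02, 1.55 and 2.36 FPKM in these lines at day 3. All 3 lines had their higher level at day 5. The log2 change over time was 1.62 ± 0.65 (SE) in KO with q = 0.0062 in the authors' deposited table. In Het it was 1.94 ± 0.60 with q = 0.00126 in the authors' deposited table. In wild type it was 0.61 ± 0.65, not called. Less the medians of genes of like GC content, the changes came to 1.54 in KO, 1.74 in Het and 1.19 in wild type.

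DLK1 had its highest level in wild type at day 3, and its log2 change of day 5 against day 3 there was -2.73 ± 0.46 (SE) with q = 0.00126 in the authors' deposited table. In Het the change was -1.17 ± 0.45 with q = 0.0068 in the authors' deposited table. In KO it was -1.02 ± 0.54 with q = 0.10 in the authors' deposited table and did not pass.

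MEST was at 265 FPKM at day 5 and 107 at day 3 in wild type, a log2 change of 1.31 ± 0.46 (SE) with q = 0.00126 in the authors' deposited table. In Het it was 203 FPKM at day 5 against 136 at day 3, and in KO 124 against 114, neither called. NNAT fell in KO by a log2 change of -1.28 ± 0.56 with q = 0.035 in the authors' deposited table. It also fell in wild type, by -0.77 ± 0.44 with q = 0.019 in the authors' deposited table, and that change came to -0.41 less the median of genes of like GC content. In Het its change was 0.07 ± 0.42. CDKN1C in Het was at 13.6 FPKM at day 5 and 5.53 at day 3, called at q = 0.034 in the authors' deposited table, and that call was lost with adjustment within the comparison.

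MEG3 (chromosome 14, 101292445 to 101327360 in hg19) is a long non-coding RNA from the maternal allele of the DLK1 region. It was at 0.107 FPKM in KO, 0.276 in Het and 0.401 in wild type at day 5, and at 0.376, 0.751 and 0.983 FPKM in the same lines at day 3. At both days KO was lowest and wild type highest. Of its 5 tested comparisons 0 were called by Cuffdiff, and 3 had an unadjusted p under 0.05. The closest was day 5 against day 3 in wild type, with q = 0.0501 in the authors' deposited table, which did pass with adjustment within that comparison.

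**Figure D3:**
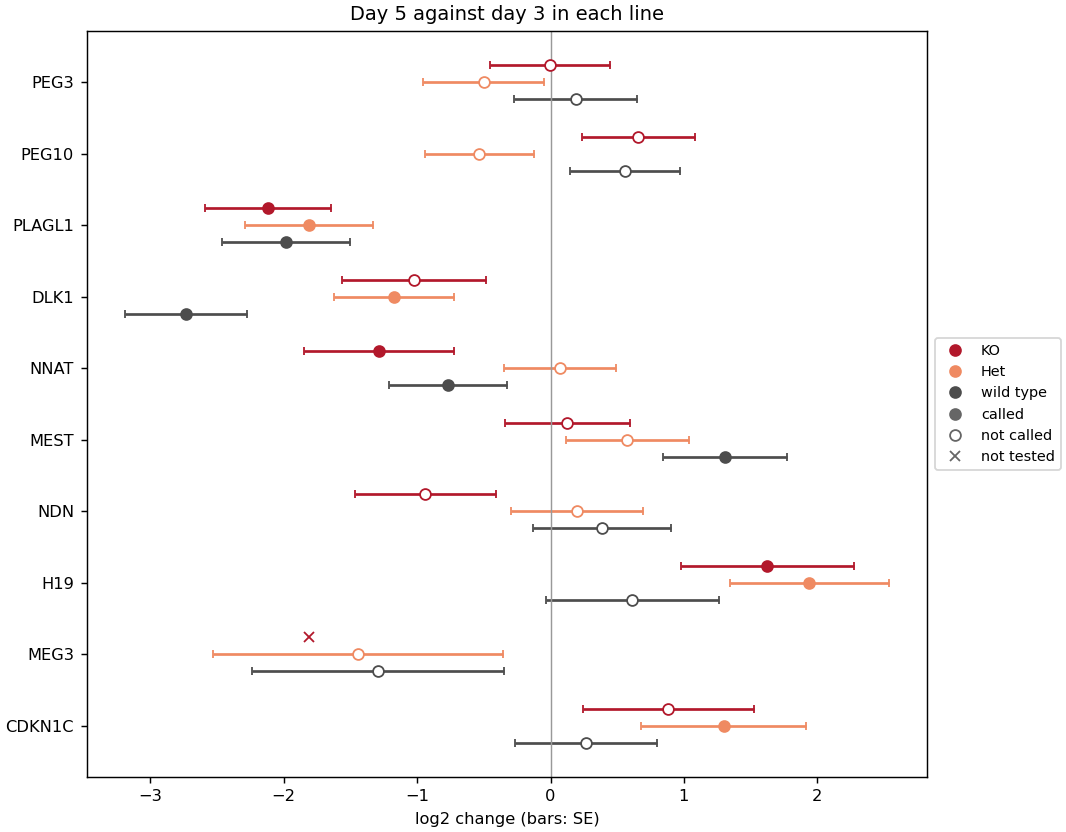
Log2 change of day 5 against day 3 for each gene in KO, Het and wild type; bars are 1 SE, filled points were called, open points were not, and the cross was not tested. PLAGL1 lies between -2.12 and -1.81 in the 3 lines, while MEST and DLK1 move most in wild type.

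A difference between the time courses was tested as the time-course change of an edited line minus that of wild type, over the SE of both. Of 9 genes tested in KO against wild type 0 were called, where 0.318% of 14143 genes were called. Of 10 tested in Het against wild type 0 were called, where 0.112% of 14250 were called. Of 9 tested in KO against Het 0 were called, where 0.120% of 14191 were called. At an unadjusted p under 0.05, 1 gene passed in each of the 3 comparisons, DLK1 in the comparisons with wild type and PEG10 in KO against Het. For DLK1 the difference was 1.71 ± 0.71 (SE) in KO and 1.56 ± 0.64 in Het, both against the same wild-type time course. In that time course, expressed genes of like GC content to DLK1 had a median log2 change of -0.35. That median was 0.031 in KO and 0.058 in Het, and these medians were not taken off the differences. With SE scaled to the deposited p-values, DLK1 was called in both and was the called gene among the 10, where 5.19% of genes were called in KO and 1.16% in Het against wild type. In KO against Het 0 of the 10 were called with scaled SE, where 1.39% of genes were called. The time courses of MEST and NDN in KO differed from those in wild type by -1.18 ± 0.66 and -1.32 ± 0.74, not called with either SE. For PLAGL1 in KO the difference was -0.13 ± 0.67.

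Beyond the 10 genes, 34 imprinted or domain genes near them were in the table. In KO against wild type at day 5, 4 were higher and 1 was lower of 21 tested, where 13.3% of all tested genes were called. IGF2, a fetal growth factor expressed from the paternal allele beside H19, was at 5.04 FPKM in KO, 1.33 in Het and 0.880 in wild type at day 5. At day 3 it was at 1.10, 0.621 and 0.628 FPKM in these lines. KO at day 5 stood above the other groups. The log2 change of KO against wild type at day 5 was 2.52 ± 0.65 (SE) with q = 0.00126 in the authors' deposited table, beside 0.79 ± 0.66 for H19. The time course of IGF2 in KO differed from that in wild type by 1.71 ± 0.93 (SE), not called with either SE.

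In the NDN region, MKRN3, a ring finger gene expressed from the paternal allele, was at 1.52 FPKM in KO, 0.0515 in Het and 0.0937 in wild type at day 5. Its log2 change of KO against wild type was 4.02 ± 1.09 (SE) with q = 0.0087 in the authors' deposited table, opposite in sign to NDN. MAGEL2, between MKRN3 and NDN, was at 1.48 FPKM in KO and 2.03 in wild type, not called. SGCE, a sarcoglycan gene that shares its control region with PEG10, was at 42.5 FPKM in KO and 22.0 in wild type at day 5, a log2 change of 0.95 ± 0.48 with q = 0.020 in the authors' deposited table. PEG10 had 0.48 ± 0.43 in that comparison and was not called. PHLDA2, a maternally expressed neighbour of CDKN1C known to limit placental growth, was at 3.80 FPKM in KO and 0.941 in wild type, with q = 0.042 in the authors' deposited table. CALCR, the calcitonin receptor gene near PEG10, was at 0.495 FPKM in KO and 1.45 in wild type and was the gene called lower.

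At day 3, RTL1 was lower in both edited lines. It is a paternally expressed retrotransposon-derived gene next to MEG3, and was chosen for naming after its values were seen because it lay below 1 FPKM in every group. It was at 0.149 FPKM in KO, 0.301 in Het and 0.852 in wild type. The log2 change was -2.52 ± 0.91 (SE) in KO with q = 0.0099 in the authors' deposited table. In Het it was -1.50 ± 0.77 with q = 0.032 in the authors' deposited table. DIO3, at the far end of that region, was at 1.52 FPKM in KO, 1.93 in Het and 1.005 in wild type at day 3, not called. Of the 34, 1 was called higher and 1 lower against wild type in KO and in Het at day 3, namely CALCR and RTL1, of 21 tested in KO and 20 in Het, where 9.51% and 6.31% of all tested genes were called in KO and Het. In Het at day 5 Cuffdiff called 0 of 19 tested, and 1 had an unadjusted p under 0.05. Over time TFPI2, a protease inhibitor gene near PEG10, rose in all 3 lines, with log2 changes of 2.72 ± 0.94 in KO, 2.34 ± 0.84 in Het and 2.92 ± 0.83 in wild type (SE).

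Genes within 1 Mb that are in no imprinted list were compared with each of the 10, on log2(FPKM + 0.1) and among tested genes with a mean of at least 1 FPKM over the groups. Values are given here for DLK1, NDN, PEG10, CDKN1C and H19. Of all tested genes in KO against wild type, 7.58% were called higher and 5.68% lower at day 5, and 4.34% and 5.17% at day 3. Around DLK1 there were 6 such genes at day 5, with a median change in KO against wild type of -0.23, against -1.58 for DLK1, and 0 of them were called. At day 3 there were 7, with a median of -0.50 against -3.30 for DLK1, and 1 was called lower. Around NDN the median of 6 genes was 0.32 with 1 called higher, against -1.012 for NDN at day 5. Around PEG10 the median of 5 genes was 1.57 at day 5 with 3 called higher, against 0.48 for PEG10. Around CDKN1C the median of 13 genes was -0.29 at day 3 with 2 called lower, against -1.28 for CDKN1C. Around H19 the median of 8 genes was -0.76 at day 3 with 3 called lower, against -0.21 for H19.

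**Figure D4:**
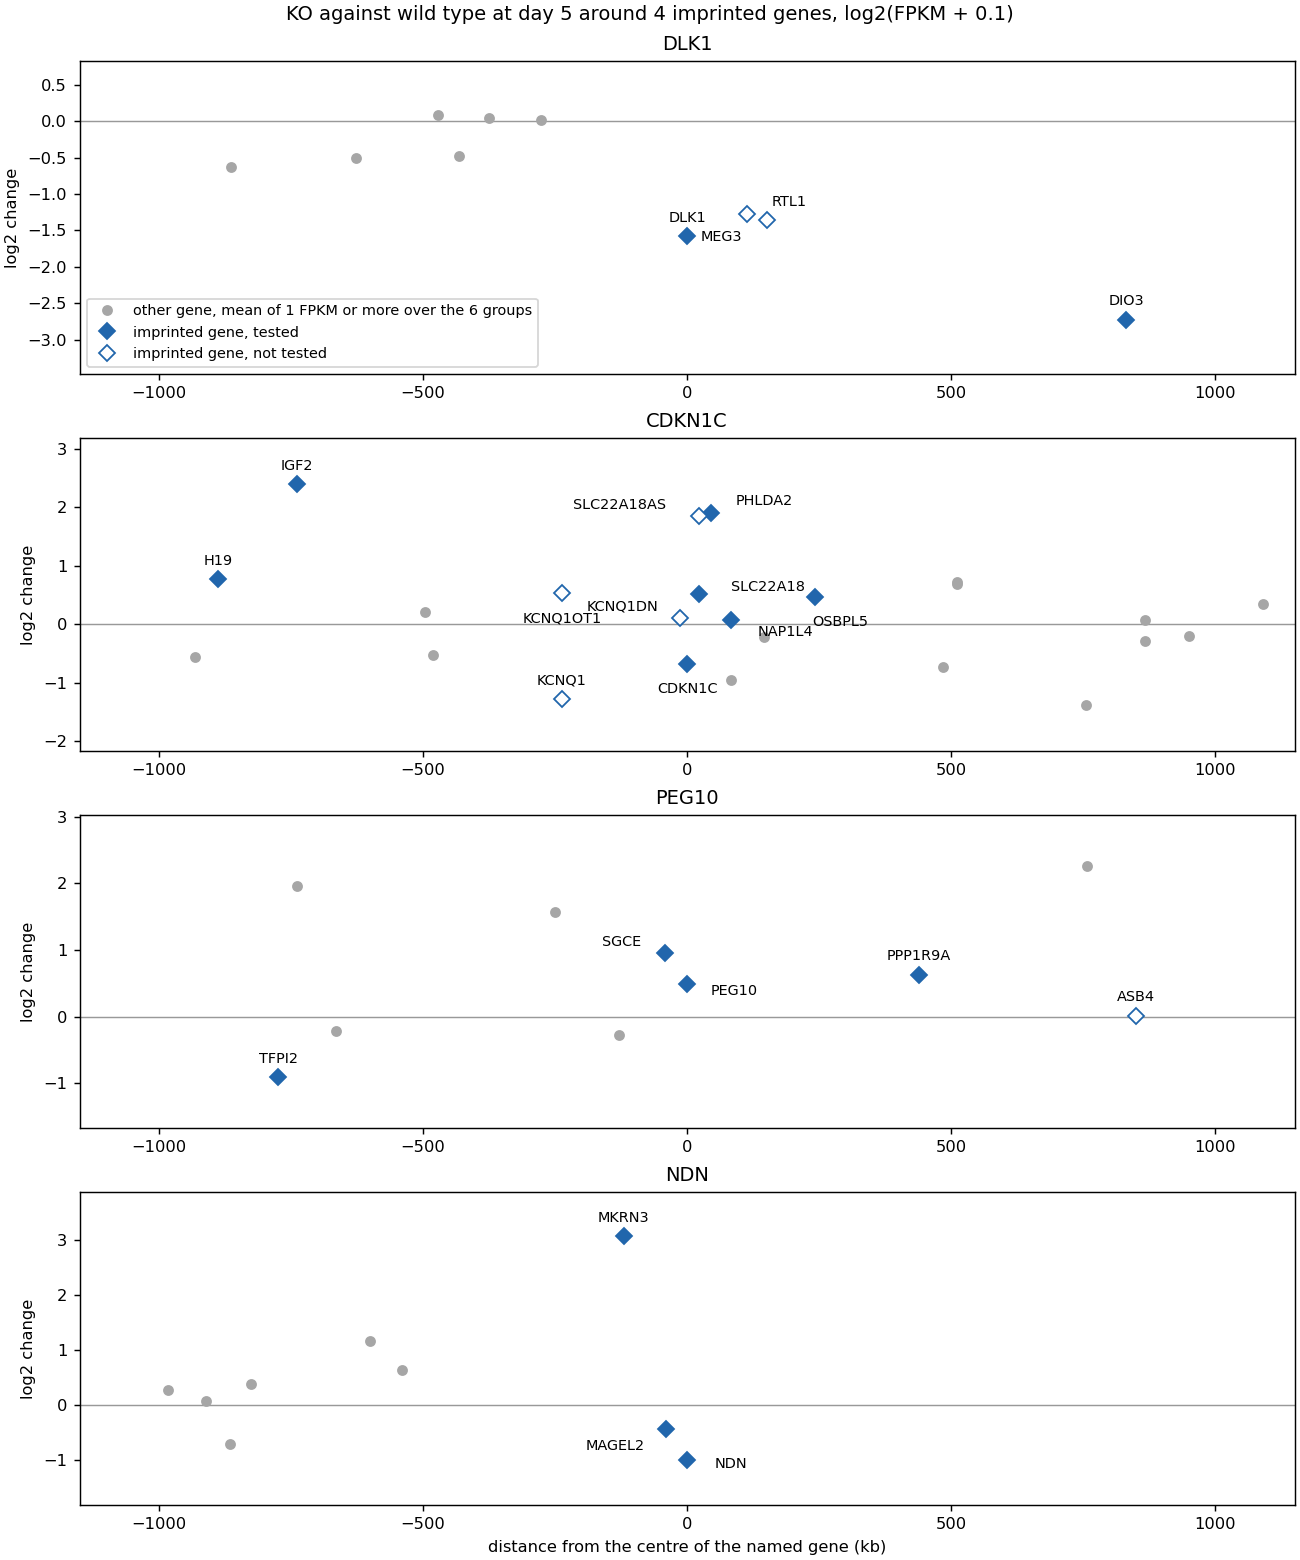
Log2 change of KO against wild type at day 5, from log2(FPKM + 0.1), against distance in kb from the centre of DLK1, CDKN1C, PEG10 and NDN. Blue diamonds are genes on the lists of imprinted or domain genes, filled where tested, and grey points are other tested genes. Genes on these lists move unlike each other, with IGF2 and MKRN3 above 0 and DLK1 and NDN below 0.

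A further 23 genes elsewhere in the genome were on a list of imprinted genes, and their imprinting in these cells was not measured. In KO against wild type at day 5, 2 were higher and 1 lower of 17 tested, where 13.3% of all tested genes were called. IGF2R, the receptor that clears IGF2, was at 32.8 FPKM in KO and 16.1 in wild type, a log2 change of 1.03 ± 0.42 (SE) with q = 0.0032 in the authors' deposited table. ANO1, a chloride channel, was at 1.02 FPKM in KO and was also higher, by a log2 change of 3.35 ± 0.86, and INPP5F, a phosphatase, was lower at 48.7 FPKM in KO and 84.5 in wild type. At day 3, SLC22A3 and GPR1 were higher in KO, and GPR1 in Het, of 16 tested in each, where 9.51% of all tested genes were called in KO and 6.31% in Het. Het at day 5 had 0 called of 16 by Cuffdiff, with 4 at an unadjusted p under 0.05. GRB10, an adaptor that restrains growth signalling, fell over time in all 3 lines, with log2 changes of -1.40 ± 0.45 in KO, -0.88 ± 0.42 in Het and -0.89 ± 0.42 in wild type.

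Of 17 genes of imprint maintenance and of DNA methylation, including TET1, TET2 and TET3, which oxidise methylcytosine, 12 were tested in each comparison. Cuffdiff called 0 of them in KO or Het against wild type at either day, where 13.3% and 2.16% of all tested genes were called in KO and Het at day 5 and 9.51% and 6.31% at day 3, and 4 in KO at day 3, 0 in KO at day 5 and 1 in Het at each day had an unadjusted p under 0.05. DNMT3B, a de novo DNA methyltransferase, was at 30.5 FPKM at day 5 and 108 at day 3 in KO, 27.7 and 61.5 in Het, and 23.7 and 73.3 in wild type. It fell over time in all 3 lines, each with q = 0.00126 in the authors' deposited table, as did HELLS, a chromatin remodeller, in KO, Het and wild type with log2 changes of -1.05, -1.61 and -0.92. UHRF1, which brings DNMT1 to newly copied DNA, fell in Het and wild type, and DNMT1 fell in wild type.

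Of 11 genes of IGF signalling and IGF2 RNA binding, 2 were higher and 3 lower in KO than in wild type at day 5, of 10 tested, where 13.3% of all tested genes were called. IRS1, the adaptor below the insulin and IGF1 receptors, was at 3.15 FPKM in KO and 19.9 in wild type, a log2 change of -2.66 ± 0.47 (SE) with q = 0.00126 in the authors' deposited table. IRS2 was at 4.08 FPKM in KO and 12.6 in wild type, and IGF2BP1, which binds IGF2 RNA, at 38.8 and 69.0 FPKM. IGF2 and IGF2R were the genes called higher. In Het against wild type Cuffdiff called 0 of 10 at either day, with an unadjusted p under 0.05 for 3 at day 5 and 0 at day 3.

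A group of 14 genes known as a network of Plagl1 in mouse, 8 of them among the genes followed here, had 3 higher and 3 lower in KO than in wild type at day 5, of 13 tested, where 13.3% of all tested genes were called. Over time 4 rose and 2 fell in KO, 2 rose and 3 fell in Het, and 1 rose and 4 fell in wild type, of 13 tested in each line, where 11.8%, 7.57% and 21.6% of all tested genes were called in KO, Het and wild type. PLAGL1 and GRB10 fell in all 3 lines. DCN, the proteoglycan decorin, was at 12.1 FPKM in KO and 0.283 in wild type at day 5 and is listed at 0 in Het at day 5. It was called higher in KO than in Het. Against wild type it was not called, at a log2 change of 5.41 ± 1.66 (SE) with q = 0.35 in the authors' deposited table.

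For each of the 9 genes at 1 FPKM or more, the most alike profiles over the 6 groups were sought among 14366 genes, by the root mean square difference of log2(FPKM + 0.1) after centring each gene. PEG3 was most like C1orf9 at 0.037 and its own antisense transcript PEG3-AS1 at 0.069. NDN was most like SH3BGRL2 at 0.069 and C6orf115 at 0.073. MEST was most like PPP1R3C and ZBTB6, both at 0.091, CDKN1C like MST1P9 at 0.093 and PTMS at 0.10, and PEG10 like TRIP11 at 0.10 and EFR3A at 0.12. NNAT was most like ZNF732 at 0.11 and HS3ST3A1 at 0.12, H19 like GUCA1A and STARD5, both at 0.13, and PLAGL1 like DMKN at 0.15 and C6orf141 at 0.22. DLK1 had the least close matches, SERPINA1 at 0.37 and C21orf88 at 0.43. Some of the matched genes had low levels, where the added 0.1 weighs on the likeness. SERPINA1 lay between 0.0063 and 1.65 FPKM, C21orf88 between 0.374 and 6.38, HS3ST3A1 between 0.377 and 1.98 and MST1P9 between 0.256 and 1.13. All these likenesses rest on 6 values that share lines and days.

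The range between the 3 lines, on log2(FPKM + 0.1), had a median over the 10 genes of 0.98 at day 5 and 0.83 at day 3, against 0.51 and 0.45 over 14855 expressed genes. MEG3, below 1 FPKM, is among the 10 but not among the expressed genes, with ranges of 1.27 at day 5 and 1.19 at day 3. DLK1 was at percentile 97.5 of those genes in its line range at day 3 and 90.3 at day 5. PLAGL1 was at percentile 4.40 at day 3 and 13.7 at day 5, while its largest change over time was at percentile 91.2. MEST and NDN had line ranges of 0.35 and 0.30 at day 3, against 1.09 and 1.01 at day 5. The genes were chosen with earlier results of these data known, so these places are a description.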

How the data were processed

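Poly-A RNA from 16 libraries was sequenced. The submitters' processing notes name TopHat2 2.1.1, Cuffdiff 2.2.1 and hg19; annotation, filters and depths: not given in the sources used here. In the authors' deposited table, 349260 lines cover 15 comparisons among 6 groups. Each deposited line gives the FPKM of both groups, their log2 fold change, a test score and Cuffdiff's p-value and q-value. The q-value is Benjamini-Hochberg over all 222234 tests together (largest difference 5.28e-07). Positions are as deposited, with starts counted from 1. Overlapping genes (H19, MEG3, PEG3, PLAGL1, NNAT and MEST with their partners) carry 1 shared region.

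Of the comparisons, 9 were used, with a call at q below 0.05 and no minimum fold. SE values come from dividing the change by its score. They split into 1 variance per group (median relative error 1.9e-06). Deposited p-values are smaller than the scores give under a normal distribution, and by how much varied between comparisons. Over time, the median score was 0.55 of the one a normal distribution gives for that p-value in wild type. In KO and in Het it was 0.71. A change of like score therefore had a smaller p-value in wild type. Differences of time courses used a 2-sided normal p with Benjamini-Hochberg adjustment over genes, checked on simulated data, and an alternative scaled the SE to the deposited p-values. Whether libraries came from separate cultures is not stated, so p-values measure only the spread between them.

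The genes and lists were chosen with earlier results of these data known. Named were the 10 genes, FOXB1, up to 8 called genes at 1 FPKM or more per list by size of change, and the 2 most alike profiles per gene. RTL1, SGCE, BLCAP, COPG2, SLC22A3, UTF1, PAX6, SOX17, FOXA2, TET1, TET2, TET3 and the hairpins were named outside that rule, after their values were seen. GC content was matched for 20066 of 23284 genes. Python 3.11.15, numpy 2.4.6, pandas 2.3.3, scipy 1.17.1 and matplotlib 3.10.9 were used.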

Additional observations from a re-analysis of the deposited data

How the results depend on the processing

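Depth is unknown and the table holds 1 value per group, so leaving out a replicate was not run. No paired analysis was possible because the table has no value per library. Across the 9 comparisons, the alternatives were adjustment within a comparison, a 1 FPKM minimum, a 2-fold minimum, pseudocounts of 0.1 and 1, and centring on all expressed genes or on the chromosome. A 1 FPKM minimum with its own adjustment and centring on genes of like GC content were chosen after seeing the data. No direction of a called change reversed under these. Among called changes, centring on like GC content moved CDKN1C in KO and NNAT in Het at day 3, and NNAT over time in wild type, by over 1.5 times. For KO against Het at day 5, 1 gene (DLK1) was called in place of 2 with adjustment within the comparison, with the 2-fold minimum, and with the 1 FPKM minimum and its own adjustment. For Het against wild type at day 3, the 2-fold minimum left 1 (DLK1) in place of 3. With scaled SE, 1 gene (DLK1) was called in place of 0 for the time courses of KO and of Het against wild type. The PEG3 calls and the rise of CDKN1C in Het were lost with adjustment within a comparison or the added minimum, and the 2-fold minimum also removed the PEG3 calls, PEG10 and NNAT in Het at day 3 and NNAT over time in wild type. MEG3, below 1 FPKM, moved most with the pseudocount, from -1.90 without one to -1.27 with 0.1 and -0.34 with 1 in KO against wild type at day 5.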
